A study of Mus musculus with 6 samples.

Results

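The genes described here build and control epithelial sheets: 39 genes for cadherins and their partners, tight junctions and desmosomes, laminins, type IV collagen and integrins, and for the regulators that move cells between epithelial and mesenchymal states. They were chosen by function, with earlier results of these data known. All 39 are protein-coding genes of the mouse annotation, out of 21887 in all. For each gene, the ESRRB regions within 50 kb were counted. A region is one interval of a deposited peak list, placed by its strongest summit, the position of most reads over background, and a region is said to be called in a library when it is in that library's list. That gave 67 of the 13767 regions of the 2iL library, 55 of the 10970 of the 48 h library and 43 of the 7018 of the 96 h library. ESRRB, an orphan nuclear receptor of naive pluripotent cells, was mapped by ChIP-seq in the E14 line of mouse embryonic stem cells. The line was grown in N2B27 medium with 2iL (the GSK3 inhibitor CHIR99021 at 3 µM, the MEK inhibitor PD0325901 at 1 µM, and LIF) or was taken 48 h or 96 h after 2iL had been replaced by N2B27 alone. Each condition had 1 ESRRB library from a mouse monoclonal antibody and 1 input library. The inputs were not analysed here. With no replicates, no test between conditions was possible, and intervals below cover counting error only. Peak lists hold no expression values, so the labelled cell type was not checked by its markers.

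Embryonic stem cells grow as compact epithelial colonies held together by E-cadherin, and they express laminin receptors of the integrin family. As pluripotent cells mature, they form a polarised epithelium on a basement membrane of laminin and type IV collagen. At gastrulation, some of these cells lose E-cadherin, gain N-cadherin and become mesenchymal under factors of the SNAI, ZEB and TWIST families.

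A region lay within 50 kb of 26 of 39 members in 2iL (66.7%, exact 95% interval 49.8 to 80.9), of 22 at 48 h (56.4%) and of 19 at 96 h (48.7%). Over all protein-coding genes the shares were 56.0%, 49.9% and 39.6%, within the counting intervals of the members' shares. A region was found in every library near 16 members and in no library near 11. The matching shares over all genes are not given here, so whether these counts are unusual is not known. Genes without any region were Cdh2, Cldn7, Ocln, Tjp1, Vim, Zeb1, Zeb2, Snai2, Twist1, Esrp1 and Itgb1. A region below the calling threshold is not in the lists, so ESRRB may still have been there at a lower level.

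The members' windows were long, with a median gene span of 47.3 kb against 17.2 kb over all genes. Counted per Mb of searched sequence, members had 10.99 regions in the 2iL library, 9.03 in the 48 h library and 7.06 in the 96 h library. All genes together had 6.75, 5.38 and 3.47. For 91 other genes of adhesion, junctions, matrix and the transition, the densities were 7.77, 6.09 and 3.91. The densities have no intervals here, and the members' regions were unevenly spread, with none in any library near 11 members. The members' regions had a lower median fold than regions near any gene. Fold is the authors' value for reads at the summit over the local background, each plus 1. Its median over the members' regions stood at 5.50, then 4.63, then 4.46, beside 5.82, 4.94 and 4.82 for regions near any gene. In 2iL, 7 of the 67 regions (10.4%) were among the strongest 20% of that library, against 19.0% of the regions near any gene. The 91 other genes had median folds of 5.62, 4.73 and 4.43, and 31 of their 139 regions in 2iL (22.3%) were in the strongest 20%. In 2iL the lower share was thus not seen in the 91 other genes. At 48 h the shares were 14.5% for members, 18.3% for the other genes and 19.4% near any gene. At 96 h they were 11.6%, 14.3% and 19.6%. These shares have no intervals here, so whether they differ is not known. Many regions were also near other genes: a member was the nearest gene for 42 of 67 regions in 2iL, 41 of 55 at 48 h and 29 of 43 at 96 h.

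**Figure D1:**
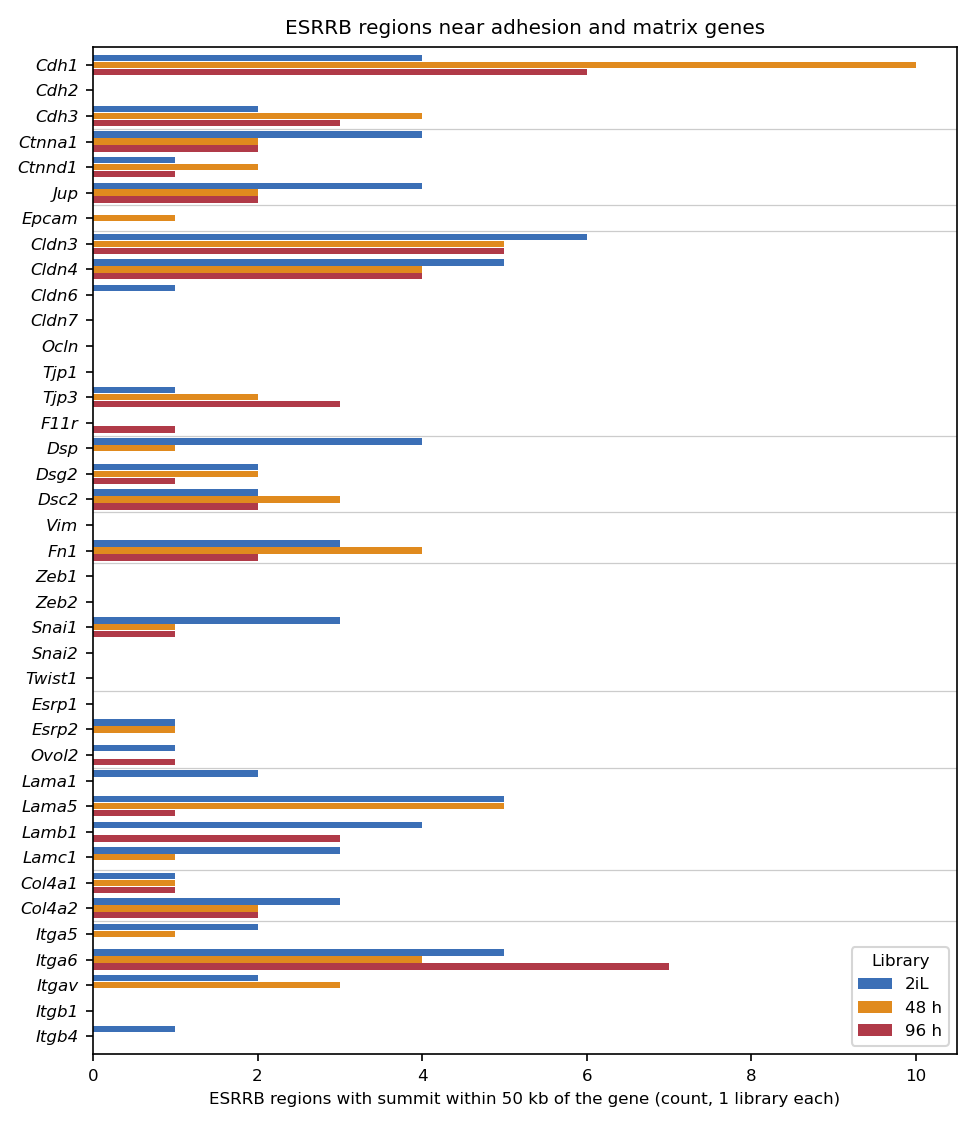
ESRRB regions with a summit within 50 kb of each of the 39 genes (bars, count in 1 library each) in 2iL, at 48 h and at 96 h, with grey lines between functional groups. Cdh1 has 4, 10 and 6, Dsp has 4, 1 and 0, and 11 genes have no bar.

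The libraries differed in background level. Reads at each summit were recovered from fold and p together. The most frequent local background, a rough stand-in for depth, came to 5.05 reads for the 2iL library, 8.09 for the 48 h library and 5.84 for the 96 h library. The 48 h level was therefore 1.60 times that of 2iL and the 96 h level 1.16 times. How the background was set, with or without the inputs, is not known. The median fold of all regions was 5.88, 4.98 and 4.82, and folds from different libraries are set side by side below without a test.

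The promoters on which ESRRB regions lay are shown first, because they tie a region to one gene more closely than distance does. Of the 24 members with a promoter sequence in the RefSeq table (GRCm38.p6, the assembly of mm10), 3 had an ESRRB region in some library over the window from 250 bases before to 50 bases after the gene start (12.5%, exact 95% interval 2.66 to 32.4). Of the 17492 protein-coding genes in that table, 8.22% did, a share inside the interval. In each of the 3, the region covered all 300 bases. Members without a sequence in that table, among them Cdh1, Cdh3 and Ctnna1, could not be counted. Regions named further on span an end of each of these genes. In the Cldn4 sequence the capitals mark the only match to AGGTCA, a core site of nuclear receptors, here on the reverse strand. In the Snai1 and Lama5 sequences, which hold no AGGTCA, capitals mark the first 50 bases of the gene.
Cldn4 (chr5:134946885-134947184, minus strand): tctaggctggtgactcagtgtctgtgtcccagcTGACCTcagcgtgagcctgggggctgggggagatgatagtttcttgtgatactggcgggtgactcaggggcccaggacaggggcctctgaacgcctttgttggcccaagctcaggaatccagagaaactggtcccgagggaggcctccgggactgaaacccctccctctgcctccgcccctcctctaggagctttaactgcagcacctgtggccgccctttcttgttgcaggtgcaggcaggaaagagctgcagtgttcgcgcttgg
Snai1 (chr2:167537945-167538244, plus strand): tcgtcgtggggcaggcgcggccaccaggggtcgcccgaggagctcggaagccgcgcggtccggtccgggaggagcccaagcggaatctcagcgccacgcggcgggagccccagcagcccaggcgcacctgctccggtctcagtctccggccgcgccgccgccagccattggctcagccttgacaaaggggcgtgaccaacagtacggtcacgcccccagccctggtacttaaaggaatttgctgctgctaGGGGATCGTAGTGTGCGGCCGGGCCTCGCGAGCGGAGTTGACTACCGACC
Lama5 (chr2:180225810-180226109, minus strand): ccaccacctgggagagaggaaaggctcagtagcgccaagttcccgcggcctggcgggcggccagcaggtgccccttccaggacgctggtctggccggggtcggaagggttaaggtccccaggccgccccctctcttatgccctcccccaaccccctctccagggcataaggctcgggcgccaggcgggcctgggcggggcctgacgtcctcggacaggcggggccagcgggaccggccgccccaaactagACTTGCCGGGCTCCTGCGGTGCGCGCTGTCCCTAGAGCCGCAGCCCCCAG

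At Cldn4, which encodes a claudin of tight junctions, the region on the promoter was called at 96 h alone, with 77 reads at the summit and a fold of 3.74 (95% interval 2.96 to 4.66). Its summit lay 156 bp before the gene start and 59 bp from the middle of the AGGTCA match. At Snai1, which encodes a zinc finger repressor of E-cadherin, the promoter region was called in 2iL and at 96 h and not at 48 h. It had 48 reads and a fold of 4.91 in 2iL, and 62 reads and a fold of 3.22 at 96 h, with summits 89 and 59 bp after the gene start. At Lama5, which encodes the α5 chain of laminin, the promoter region was called in 2iL alone, with 28 reads, a fold of 3.22 and a summit 281 bp after the gene start. All 3 had folds below the median of their libraries.

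The longer ESRRB site TCAAGGTCA was found in none of the 31 promoter windows of the 24 members and in 0.423% of all 32851 windows in the table. AAGGTCA, contained in it, was found in 1 member window, of Ctnnd1, and in 4.72% of all windows. AGGTCA, contained in both, was found in 6 member windows, of Cldn4, Cldn7, Ctnnd1, Ocln and Tjp3, and in 16.3% of all windows. Both strands were searched, and the motifs are known sites of the receptor, 1 nested in the next. Cldn7 and Ocln had the match and no ESRRB region in any library. The GC content was 61.0% for the Cldn4 promoter, 70.0% for Snai1 and 72.7% for Lama5, and the median over all windows was 52.7%.

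After 2iL withdrawal, 37 of the 67 regions of 2iL near members were also called at 48 h (55.2%, 95% interval 42.6 to 67.4) and 26 at 96 h (38.8%, 27.1 to 51.5). The shares for 2iL regions near any protein-coding gene were 51.4% and 35.5%, inside those intervals. In the other direction, 37 of 55 regions of 48 h (67.3%) and 26 of 43 regions of 96 h (60.5%, 44.4 to 75.0) were called in 2iL, against 64.4% and 70.1% near any gene. For the 91 other genes of the same pathways the 4 shares were 52.5%, 34.5%, 67.0% and 70.0%. Each share over all genes lay inside the members' interval.

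**Figure D2:**
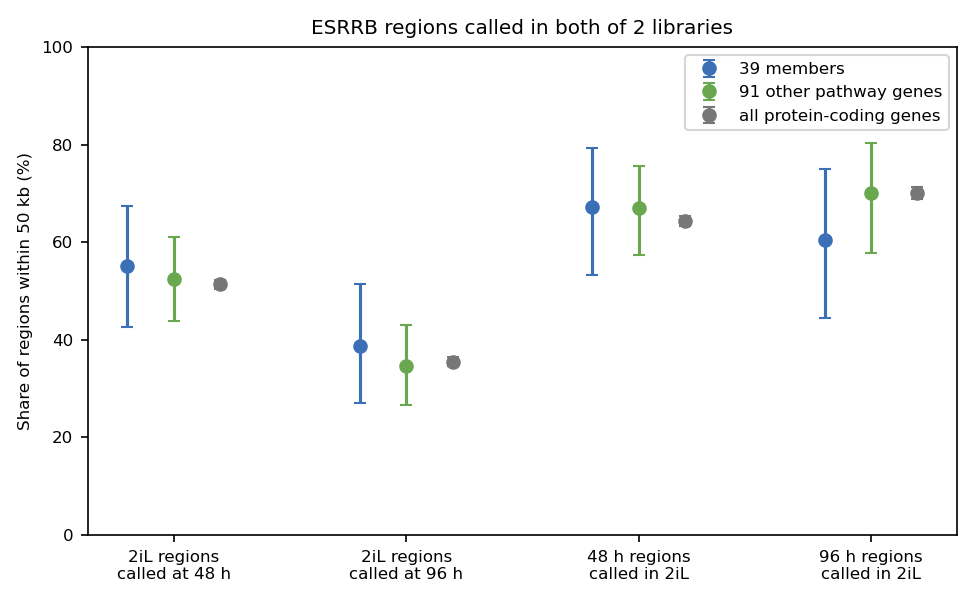
Share of ESRRB regions within 50 kb of a gene that were also called in a second library (percent, points) for the 39 members, 91 other genes of the pathways and all protein-coding genes. Bars are exact 95% counting intervals, and those of the members (55.2%, 38.8%, 67.3% and 60.5%) include the shares over all genes (51.4%, 35.5%, 64.4% and 70.1%).

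Of the 26 members with a 2iL region, 15 had fewer regions at 48 h (57.7%) and 18 at 96 h (69.2%), beside 53.5% and 70.7% over all genes. More regions than in 2iL were counted at 48 h for 8 of the 27 members with a region in either library (29.6%) and at 96 h for 5 of 27 (18.5%). The shares over all genes were 23.4% and 12.6%. The direction differed between ways of counting. With each list shortened to its 7018 strongest regions by fold, 8 of 21 members had fewer regions at 48 h and 7 of 21 at 96 h, against 43.0% and 42.1% over all genes. With the same lists, 12 of 25 members had more at 48 h and 11 of 24 at 96 h, against 32.8% and 39.5%. Shortening also set a different lowest fold in each list, 5.82, 4.35 and 1.31. Within 10 kb of the genes, 19 members had a region in 2iL and 19 at 48 h, with 35 and 37 regions. There, 7 members had fewer and 7 had more at 48 h. Counts over all genes are not given here for that window, so whether this is particular to the members is not known.

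The 2iL regions near members that were called again had higher median folds than those that were not. In the strongest 20% of 2iL (fold of at least 8.71) the members had 7 regions. The 48 h list held all 7 (exact 95% interval 59.0 to 100%), and the 96 h list held 6 (85.7%, 42.1 to 99.6). Of the 2169 regions of that strength near any protein-coding gene, 79.2% were called at 48 h and 63.4% at 96 h, inside those intervals. Their folds in 2iL were 15.6 near Itga6, 11.7 near Esrp2, 11.4 near Cldn4, 11.1 near Lama5, 9.89 near Tjp3, 9.85 near Ctnnd1 and 8.99 near Dsg2. Only the Esrp2 region was not called at 96 h. A member was the nearest gene for 2 of the 7, those near Lama5 and Dsg2. The 26 regions called at neither later time (38.8%, against 45.0% near any gene) had a median 2iL fold of 4.45 (range 1.83 to 8.36), and the 22 called at both (32.8%, against 31.9%) had 6.04 (3.66 to 15.6). Over all 2iL regions those medians were 5.19 and 7.60.

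**Figure D3:**
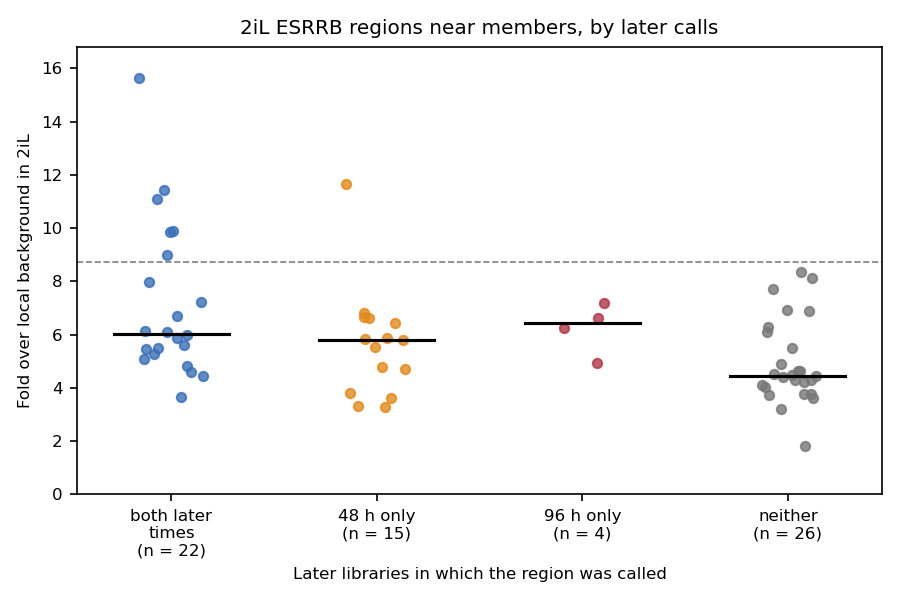
Fold over local background in 2iL (y axis) of the 67 ESRRB regions near members, 1 point each, by the later libraries in which the region was called, with the median as a black line. Above the dashed line at a fold of 8.71 (strongest 20% of the library) lie 7 regions, 6 called at both later times and 1 at 48 h only.

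Overlapping regions of the 3 libraries near members merged into 95 regions, of which 66 included a 2iL region (adjacent regions at the end of Cdh1 merged into 1). Of the 95, 21 were called in every library (22.1%, against 22.9% of all 18634 merged regions), 26 in 2iL alone (27.4%, against 33.7%) and 12 at 48 h alone (12.6%, against 15.5%). At 96 h alone there were 11 (11.6%, 95% interval 5.92 to 19.8), against 5.37%. Regions near 1 gene are not independent of each other, so the interval is too narrow. Summits kept their position: the 2iL summit lay within 100 bp of the later one in 31 of 37 cases at 48 h (median distance 37.0 bp) and in 22 of 26 at 96 h (28.5 bp). Over all regions 88.3% and 86.4% lay that close.

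Cadherins join neighbouring cells through calcium-dependent contacts, and 2 of the 3 cadherin genes among the members had regions. Cdh1, which encodes E-cadherin, had 4, 10 and 6 regions in the 3 libraries in order of time, and all 4 of 2iL were called again at both later times. Cdh3, which encodes P-cadherin and is its neighbour, had 2, 4 and 3 regions, some of them shared with Cdh1. Cdh2, which encodes N-cadherin, had none in any library. Of the unique cadherin regions of 48 h, 5 of 12 were called in 2iL, and of those of 96 h, 5 of 8. Near any gene the shares were 64.4% and 70.1%. The cadherin regions lay near 2 neighbouring genes, and their counts were not set against those shares by a test. In equal-length lists Cdh1 had 1, 4 and 6 regions and Cdh3 1, 2 and 3. Those lists began at folds of 5.82, 4.35 and 1.31, so they left out weaker regions of 2iL and none of 96 h. They therefore cannot back the rise seen in the full lists. With any summit of an interval in the window, Cdh3 gained a 2iL region. By that count 4 members, not 5, had more regions at 96 h than in 2iL.

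At the end of Cdh1 that faces Cdh3 (chromosome 8, gene from 106603350 to 106670247), a pair of adjacent regions was called in each library. The outer one, at 106603370 to 106605150 in 2iL, had 46 reads at the summit and a fold of 5.09 (95% interval 3.75 to 6.75) in 2iL. It had 130 reads and a fold of 7.11 (5.95 to 8.43) at 48 h, and 81 reads and a fold of 6.24 (4.97 to 7.74) at 96 h. The intervals of the 3 libraries overlap. The inner one, at 106605228 to 106607432, had folds of 5.25, 6.24 and 5.23. Further inside the gene, the region at 106644559 to 106645600 had the highest 2iL fold, 6.71, and folds of 6.16 and 4.77 later, and the region at 106614714 to 106616125 had 4.59, 4.55 and 3.37.

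Cdh1 regions without a 2iL counterpart had folds of at most 4.34. A region at 106639900 to 106640915 was called at 48 h with 81 reads and a fold of 4.34, and again at 96 h with 36 reads and a fold of 4.22. A region at 106610356 to 106612098 was called at both later times with folds of 2.40 and 2.54. At 48 h alone, 4 more had folds of 3.13, 3.44, 3.55 and 3.92. The 48 h library had 1.60 times the background level of 2iL, and the part of depth in these calls was not tested. Beside Cdh3, the region at 106509111 to 106510770 had a fold of 6.12 in 2iL and 4.68 at 48 h. The 96 h region that touched it overlapped by 33 bp, with its summit inside the gene and a fold of 3.82.

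**Figure D4:**
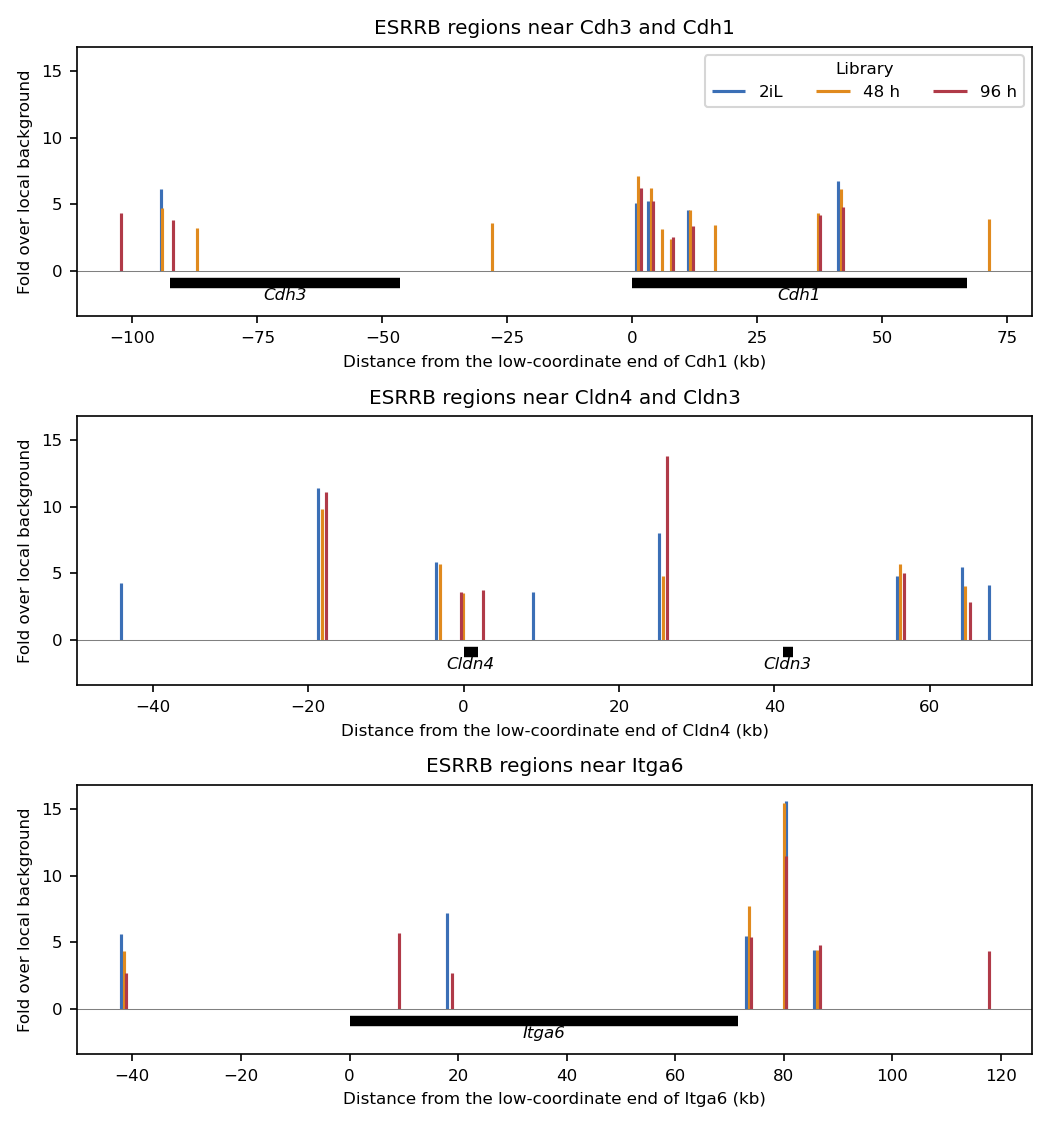
ESRRB summits near Cdh3 and Cdh1, Cldn4 and Cldn3, and Itga6: x, distance in kb from the low-coordinate end of the named gene, y, fold over local background, with colours for the libraries (lines shifted slightly sideways so that they do not hide each other) and black bars for the genes. The tallest lines near Itga6 have folds of 15.6, 15.5 and 11.5, and Cdh1 has 4, 10 and 6 lines in its window.

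The catenins and plakoglobin link cadherins to the cytoskeleton. Ctnna1, which encodes αE-catenin, had 4, 2 and 2 regions. Its region inside the gene (chromosome 18, 35137957 to 35138561) was called each time with folds of 6.08, 4.33 and 5.70. The one across its low-coordinate end (35118325 to 35120053), with a 2iL summit 51 bp outside, had 6.65 in 2iL and 3.07 at 48 h. Ctnnd1, which encodes p120-catenin, had 1, 2 and 1 regions. Its strongest lay 18.9 kb away (chromosome 2, 84677541 to 84678155) with 123, 186 and 117 reads and folds of 9.85, 8.34 and 6.22, and its summit was inside Tmx2. Jup, which encodes plakoglobin, had 4, 2 and 2 regions. The 3 regions of 2iL inside Jup (folds of 6.89, 4.39 and 1.83) were called at neither later time, whereas a region inside the gene at chromosome 11, 100391567 to 100392560, was called with folds of 6.84 at 48 h and 4.25 at 96 h and not in 2iL. That region was the strongest later one near any member without a 2iL call.

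Epcam encodes a homophilic adhesion protein of epithelia and embryonic stem cells. It had no region in 2iL or at 96 h and 1 at 48 h, inside the gene (chromosome 17, 87637750 to 87638223), with 56 reads and a fold of 4.60 (95% interval 3.49 to 5.94).

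Tight junctions seal the space between epithelial cells, and their regions were concentrated at Cldn3 and Cldn4, neighbouring claudin genes that shared regions. Cldn3 had 6, 5 and 5 regions and Cldn4 had 5, 4 and 4. A region with a large change in fold lay between the genes, 15.4 kb from Cldn3 (chromosome 5, 134970443 to 134971239 in 2iL). It had 61 reads and a fold of 7.99 (95% interval 6.14 to 10.2) in 2iL, 89 reads and 4.76 (3.83 to 5.84) at 48 h, and 113 reads and 13.8 (11.4 to 16.6) at 96 h. Its rank within the library went from the 74.8 percentile of fold to the 45.5 and then the 96.5. The local background at its summit was 6.76, 17.9 and 7.27 reads. The intervals of the 3 folds do not overlap, but they take this background as known. With 1 library each, the spread between replicates is unknown.

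The other strong claudin region stayed near the 90.9 percentile it had in 2iL. It lay 18.2 kb from Cldn4 (134925785 to 134927223), nearest to Mettl27, with folds of 11.4, 9.80 and 11.1. On the far side of Cldn3, nearest to Abhd11, a region at 135001171 to 135001797 had folds of 4.82, 5.70 and 4.99, and one at 135009192 to 135010191 had 5.45, 4.03 and 2.85. Beside the promoter region of Cldn4 described above, a region just past the other end of that gene was called at 48 h (fold 3.52) and at 96 h (fold 3.60) and not in 2iL. The region at 134941031 to 134943677 was called in 2iL and at 48 h with folds of 5.82 and 5.68.

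The remaining tight junction genes had few regions. Tjp3, which encodes the scaffold ZO-3, had 1, 2 and 3. Its 2iL region lay 48.9 kb away inside Gipc3 (chromosome 10, 81339564 to 81340892) and had folds of 9.89, 7.81 and 8.71. Inside Tjp3 itself, a region was called at 48 h (4.03) and 96 h (4.37), and another at 96 h alone (81284436 to 81285327, fold 4.95), with none in 2iL. Cldn6, a claudin of early embryonic epithelium, had 1 region in 2iL (fold 4.89, nearest to Cldn9) and none later. F11r, which encodes the junction protein JAM-A, had 1 weak region at 96 h, 38.6 kb away (fold 2.82). Cldn7, Ocln (occludin) and Tjp1 (ZO-1) had none, although the Tjp1 span is 232 kb long.

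Desmosomes anchor keratin filaments at cell contacts. Dsp, which encodes desmoplakin, had 4, 1 and 0 regions, all outside the gene on its low-coordinate side. The strongest (chromosome 13, 38132804 to 38133756) had 64 reads and a fold of 8.36 (95% interval 6.47 to 10.6) in 2iL. It was the highest 2iL fold near any member that was called at neither later time. Regions at 38119260 to 38120745 (fold 6.92) and 38123757 to 38124290 (4.01) were not called again either, and the one called at 48 h had folds of 5.80 and 3.37. In equal-length lists Dsp had 2, 0 and 0 regions.

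The desmosomal cadherins were less one-sided. Dsg2, which encodes desmoglein 2, had 2, 2 and 1 regions, and its strongest lay 2.40 kb beyond the gene (chromosome 18, 20605455 to 20607721) with 80, 83 and 56 reads and folds of 8.99, 8.40 and 5.93. A region 6.44 kb from the other end was called at 48 h alone with a fold of 4.84. Dsc2, which encodes desmocollin 2, had 2, 3 and 2 regions. Its strongest (20076220 to 20076735) lay nearer to Dsc1 and had folds of 5.87, 7.81 and 7.53, with a rank that went from the 49.8 percentile in 2iL to the 81.8 and 81.3 later. A region inside Dsc2 was called at both later times (folds of 3.62 and 4.12) and not in 2iL.

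**Figure D5:**
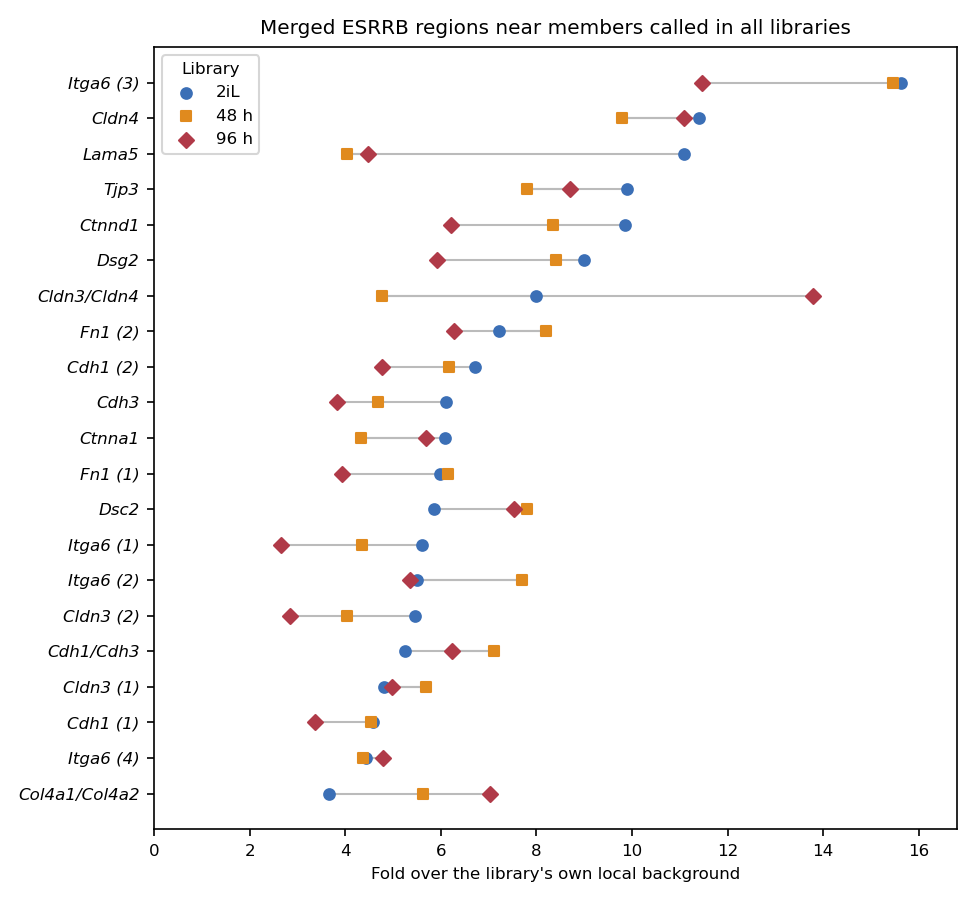
Fold over each library's own local background (x axis) for the 21 merged regions near members called in every library, in order of their 2iL fold; numbers in brackets separate regions of the same gene by position. The Itga6 region has the highest fold in 2iL (15.6), the region between Cldn4 and Cldn3 the highest at 96 h (13.8), and the Lama5 region has 11.1 in 2iL and 4.03 at 48 h.

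Mesenchymal genes and the factors that drive the mesenchymal state had few regions, apart from Fn1 and Snai1. Fn1, which encodes fibronectin, had 3, 4 and 2 regions. All 3 of 2iL were called at 48 h, and the strongest, 19.3 kb from the gene (chromosome 1, 71672196 to 71673805), had 68, 92 and 42 reads and folds of 7.22, 8.21 and 6.28. Vim, which encodes the filament protein vimentin, had none. Of the 5 regulators of the transition, only Snai1 had any, with 3, 1 and 1. Beside the promoter region given above, its strongest 2iL region lay 7.25 kb beyond the gene (chromosome 2, 167549568 to 167550885; 50 reads, fold 8.11) and was called at neither later time. Another, 8.03 kb on the other side (167529782 to 167531154), had folds of 6.44 in 2iL and 5.59 at 48 h. Snai2, Twist1, Zeb1 and Zeb2 had no region in any library.

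The 3 members that regulate the epithelial state had at most 1 region each in any library. Esrp2, which encodes an epithelial splicing factor, had 1 in 2iL and at 48 h and none at 96 h. This region lay 18.1 kb away inside Nfatc3 (chromosome 8, 106111530 to 106113039), with 104 and 72 reads and folds of 11.7 and 6.87. Ovol2, which encodes a zinc finger repressor of mesenchymal genes, had 1 region inside the gene in 2iL (chromosome 2, 144311172 to 144311734, fold 6.24) and at 96 h (4.46). None was called there at 48 h. Esrp1, the related splicing factor gene, had none.

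Laminins are the trimers that organise basement membranes, and of the 14 regions of 2iL near 4 laminin genes, 5 were in the 48 h list, 1 in the 96 h list and 9 in neither. Near any gene the shares were 51.4%, 35.5% and 45.0%, and with 4 genes the laminin counts were not set against them by a test. Lama1, which encodes the α1 chain of the embryonic laminin, had 2, 0 and 0 regions. Its stronger one, inside the gene (chromosome 17, 67709770 to 67711823), had 111 reads and a fold of 7.70 (95% interval 6.34 to 9.25) in 2iL. Lamb1, which encodes the β1 chain, had 4, 0 and 3 regions, and none of the 3 at 96 h overlapped one of 2iL. The 2iL regions inside Lamb1 had folds of 6.29 and 6.10, whereas those of 96 h lay outside the gene, the strongest 45.8 kb away beyond Dld with a fold of 6.57. Lamc1, which encodes the γ1 chain, had 3, 1 and 0 regions, of which the one inside the gene had folds of 5.86 in 2iL and 5.75 at 48 h.

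Lama5 had 5, 5 and 1 regions. The one that was called in every library lay 1.78 kb outside the gene, at the end with the promoter (chromosome 2, 180226993 to 180228128). It had 105 reads and a fold of 11.1 (95% interval 9.09 to 13.4) in 2iL, 153 reads and 4.03 (3.42 to 4.72) at 48 h, and 77 reads and 4.48 (3.55 to 5.59) at 96 h. Its rank went from the 90.1 percentile in 2iL to the 28.2 and 42.5. More reads lay at its summit at 48 h than in 2iL while the fold was lower.

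The type IV collagen genes Col4a1 and Col4a2, which encode the main network-forming collagen of basement membranes, lie head to head and share a region. Col4a1 had 1 region in each library and Col4a2 had 3, 2 and 2. The shared region, inside Col4a1 (chromosome 8, 11308521 to 11309755), had 41 reads and a fold of 3.66 (95% interval 2.65 to 4.93) in 2iL, 82 reads and 5.62 (4.48 to 6.96) at 48 h, and 60 reads and 7.03 (5.39 to 9.01) at 96 h. Its rank went from the 7.04 percentile to the 60.7 and 78.4, and the intervals of 2iL and 96 h do not overlap. The local background was 10.5, 13.8 and 7.68 reads, taken as known for the intervals. The other regions of Col4a2 had folds of at most 4.71, and the one inside that gene was called in 2iL and at 48 h.

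Integrins hold cells to the matrix, and among the 5 integrin genes Itga6 had the most regions in each library. Itga6, which encodes the α6 chain of laminin receptors, had 5, 4 and 7. Its strongest region (chromosome 2, 71866577 to 71868180) had the highest fold near any member in 2iL and at 48 h, with 188 reads and a fold of 15.6 (95% interval 13.5 to 18.0) in 2iL. It had 238 reads and 15.5 (13.6 to 17.5) at 48 h and 132 reads and 11.5 (9.61 to 13.6) at 96 h. The summit lay 9.29 kb beyond the gene in 2iL, and 8.40 and 8.41 kb later, and the nearest gene was Pdk1.

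Around it, the Itga6 regions moved in different ways. A region 2.01 kb beyond the gene had folds of 5.50, 7.69 and 5.36, one beside Pdk1 had 4.43, 4.38 and 4.79, and one 41.6 kb on the other side had 5.60, 4.34 and 2.65. Inside Itga6, a 2iL region (71804853 to 71805585) had a fold of 7.17, was not called at 48 h and had 2.66 at 96 h. Another region inside the gene was called at 96 h alone (71794932 to 71795799, 38 reads, fold 5.65). In equal-length lists Itga6 had 2, 3 and 7 regions.

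The other integrin genes had weaker regions. Itgav, which encodes the αV chain, had 2, 3 and 0 regions, of which both of 2iL were called at 48 h. The stronger (chromosome 2, 83713539 to 83714159) had folds of 6.82 and 7.04, and none near the gene was called at 96 h. Itga5, which encodes the fibronectin receptor chain α5, had 2, 1 and 0 regions with folds of at most 4.96. Itgb4, which encodes the β4 chain of hemidesmosomes, had 1 region in 2iL (fold 3.78, inside Sap30bp) and none later, and Itgb1, which encodes the shared β1 chain, had none.

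Regions called only after withdrawal had lower median folds than their libraries. Of the 95 merged regions, 29 were not called in 2iL, and their highest fold was 6.84, at Jup. Among them, 6 were called at both later times (6.32%, against 5.92% of all merged regions). At 48 h alone there were 12 (12.6%, against 15.5%) and at 96 h alone 11 (11.6%, against 5.37%). The 18 called at 48 h had a median fold of 3.60 and the 17 called at 96 h of 4.22, beside 4.98 and 4.82 for all regions of those libraries. Medians for regions near any gene that were not called in 2iL are not given here. Whether the low folds are particular to the members is therefore not known. The strongest after Jup lay near Lamb1 (6.57, 96 h), inside Itga6 (5.65, 96 h), near Ctnnd1 (4.95, 48 h), inside Tjp3 (4.95, 96 h) and near Dsg2 (4.84, 48 h).

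Among 91 other genes of adhesion, junctions, matrix and the transition, a region lay near 58 in 2iL (63.7%), 54 at 48 h (59.3%) and 40 at 96 h (44.0%). Of the 58, 30 had fewer regions at 48 h (51.7%, against 53.5% over all genes) and 36 at 96 h (62.1%, against 70.7%). More regions than in 2iL were counted at 48 h for 17 of the 65 genes with a region in either library (26.2%, against 23.4%) and at 96 h for 6 of 61 (9.84%, against 12.6%). The strongest 2iL region of this list had a fold of 20.8, near Grhl3, which encodes a factor of surface epithelium. Grhl3 had 10, 6 and 6 regions and highest folds of 20.8, 14.2 and 20.3. The membrane protease gene St14 had 3, 1 and 1 (highest 2iL fold 18.6), and the adhesion genes Nectin2 and Nectin4 had 5, 4 and 4 (17.3) and 2, 0 and 0 (13.8). Prkci, which encodes a polarity kinase, had 3, 3 and 2 (17.0), the junction genes Jam3 and Jam2 had 1, 1 and 0 (16.5) and 4, 3 and 4 (13.2), and Dag1, which encodes the laminin receptor dystroglycan, had 3, 3 and 1 (12.5).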

How the data were processed

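The 39 genes and the 91 other genes of their pathways were chosen for function with earlier results of these data known. Per the labels' protocols, chromatin was fixed with 1% formaldehyde. Per the submitters' processing notes, bcl2fastq 2.20.0.422, BWA, SAMtools, Picard and MACS2 were used with build mm10. For the other tool versions, the use of the inputs as controls and the threshold, the sources used here give nothing. The input libraries were not used here. Peaks were called on each library, per the peak names in the deposited files. The authors deposited 1 line per summit, with an interval score, a fold ratio over local background, a −log10 p-value, a −log10 q-value and a summit offset in bp.

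From these, Python 3.11.15, pandas 2.3.3 and scipy 1.17.1 computed everything below. A region was a unique interval, placed and valued by its summit of highest fold. Regions overlapping by at least 1 bp were taken as called in both libraries. Reads at a summit, solved from fold and p, were whole numbers within 0.05 for 100% of regions, and gave Poisson 95% intervals for folds with the background taken as known. Shares have Clopper-Pearson 95% intervals. These helpers were tested on simulated data. Genes were spans of the RefSeq annotation (GRCm38.p6). All 39 members and all 91 others matched, 1 of the latter by a synonym.

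All members are named. The regions given in full were, by rule, each member's strongest in 2iL (or later if none), 2iL regions of the strongest 20% called at neither later time (there were none) and the 6 strongest later regions not called in 2iL. Of the other genes, the 8 with the highest 2iL fold are named. Further regions were chosen after their values were seen.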

Additional observations from a re-analysis of the deposited data

How the results depend on the processing

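No paired analysis was possible because each condition had 1 library. Each of 14 results (members with a region, unique regions, members with fewer or more regions, and shares called in another library) was recomputed under the alternatives. Counts of regions and of changed members differed with the window and the list length. With a window of 10 kb the 3 libraries in order of time had 35, 37 and 24 regions near 19, 19 and 15 members, and 7 members had fewer and 7 more at 48 h, so the drop from 2iL to 48 h was lost. With 100 kb there were 102 regions in 2iL and 85 at 48 h, and 3 members had more at 96 h. With lists of equal length by fold there were 30 regions in 2iL and 32 at 48 h. Then 8 members had fewer regions at 48 h and 7 at 96 h, 11 had more at 96 h, 50% of 48 h regions and 37.2% of 96 h regions were called in 2iL, and 53.3% of 2iL regions were called at 96 h. These lists hold fewer weak regions of 2iL and 48 h and all of 96 h. With each region counted for its nearest protein-coding gene only, there were 42 regions in 2iL and 41 at 48 h, near 20 and 21 members, with 8 members fewer and 7 more, so that drop was lost there too. Counts over all genes are not given for the 10 kb, 100 kb and nearest-gene settings. Whether the lost drops are particular to the members is therefore not known. The numbers of members with a region stayed within 1.5 times the reported ones in every setting. With a q of 1e-05 or less, an overlap covering 50% or more of each region (shares only), or any summit of the interval in the window (added after seeing the data), counts stayed within 1.5 times and shares inside their intervals. The most frequent background was 5.05, 8.09 and 5.84 reads, the part of depth in the calls was not tested, and an uncalled region may hold ESRRB below the threshold.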
